A study of Mus musculus with 16 samples.

Results

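The nuclear-encoded oxidative phosphorylation genes were the 80 of 24421 listed mouse genes whose symbols begin with Nduf (series a, b, c, s or v), Uqcr, Cox4 to Cox8 or Atp5. The rule that picks them uses the symbol alone and no measured value, although it was set with earlier results of these data known. Of the 80 members, 36 belong by symbol to complex I, 8 to complex III, 19 to complex IV (Ndufa4 is counted there) and 17 to complex V; at least 1 UMI was found for 75. UMIs are molecular barcodes that count captured transcripts once each. The study asked how the stem cell lineage of normal intestine compares with that of precancerous intestine. Single cells were taken from crypt isolates of untreated outbred mice at postnatal day 16. The wild-type (WT) group and the ROBO-Crainbow (ROBO) group are labelled with 8 samples each, but each genotype was deposited as 1 matrix in which cells carry no sample name, so both are treated as 1 pooled sample. ROBO mice were ROBO(+/−):VilCre(+/−), in which Villin-Cre recombines the transgene in the embryonic intestinal epithelium, and recombined cells express human RSPO3 or a PTPRK:RSPO3 fusion. The WT mice lacked these. Transcripts of human RSPO3 were not analysed here, so the genotype labels were not checked against the transgene. No test between genotypes was possible, and all intervals below are 95% intervals that cover counting error only.

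Oxidative phosphorylation is the route by which mitochondria make most of a cell's ATP. Complex I takes electrons from NADH and complex II from succinate, complex III passes them to cytochrome c, complex IV passes them on to oxygen, and complex V (ATP synthase) uses the resulting proton gradient. The complexes other than complex II are built from subunits of both genomes, and the members here are the share encoded in the nucleus. No gene of mitochondrial DNA is listed in the matrices. In the small intestine, stem cells and dividing transiently amplifying (TA) cells sit in the crypt, and their daughters move up the villus as absorptive enterocytes until they are shed at the tip.

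The WT matrix held 1348 cells with 2682127 UMIs and the ROBO matrix 1249 cells with 2428435 UMIs, at a median of 1492 and 1610 UMIs per cell. No cell name was shared by the matrices. Cells were clustered with the members left out of the variable genes, and clusters were named only from marker lists. The 5 classes along the crypt-villus axis were stem-like (8 raised stem markers, 444 cells), TA-like (clusters with 5 and 25 raised markers, 786 cells), bottom enterocyte-like (7 raised, 294 cells), middle enterocyte-like (clusters with 11 and 15 raised, 456 cells) and top enterocyte-like (12 raised, 229 cells). The TA-like cluster with 25 raised markers also had the stem markers Sfrp5, Slc14a1 and Smoc2 among its 10 leading genes. They stood beside Cdc20, Birc5 and Pbk of the TA list. Its median depth was 2933 UMIs per cell, against 918 in the other TA-like cluster. A cluster of 178 cells stayed unnamed because more bottom enterocyte markers (Reg3g and Reg3b) than stem markers stood among its leading genes. The isolates were labelled as crypt cells, yet all 3 enterocyte classes were present in both matrices.

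Members took 4.11% of UMIs in WT (interval 4.08 to 4.13) and 3.84% in ROBO (3.82 to 3.87). Along the axis their summed share rose from the stem-like to the bottom enterocyte-like cells and was lowest in the top enterocyte-like cells, in both matrices. In WT it was 3.33% in stem-like, 4.59% in TA-like, 5.37% in bottom, 4.22% in middle and 1.78% in top enterocyte-like cells. The ROBO values were 3.46%, 4.09%, 5.28%, 4.16% and 1.92% in the same order. The middle value pools unlike clusters, and a cluster led by Sis stood above the bottom class, as described below. No interval of 1 class met that of its neighbour in either matrix. The bottom class thus stood 1.61-fold above the stem-like class in WT (interval 1.58 to 1.65) and 1.53-fold in ROBO (1.49 to 1.57), and the top class reached 0.331 of the bottom class in WT (0.317 to 0.345) and 0.363 in ROBO (0.350 to 0.377). Depth also varied along the axis. With the matrices pooled, the median was 1113, 1518, 1584, 1755.5 and 1209 UMIs per cell from stem-like to top cells. In the bottom class it was 1300 in WT and 2209 in ROBO. The part of depth in these shares was not tested.

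**Figure D1:**
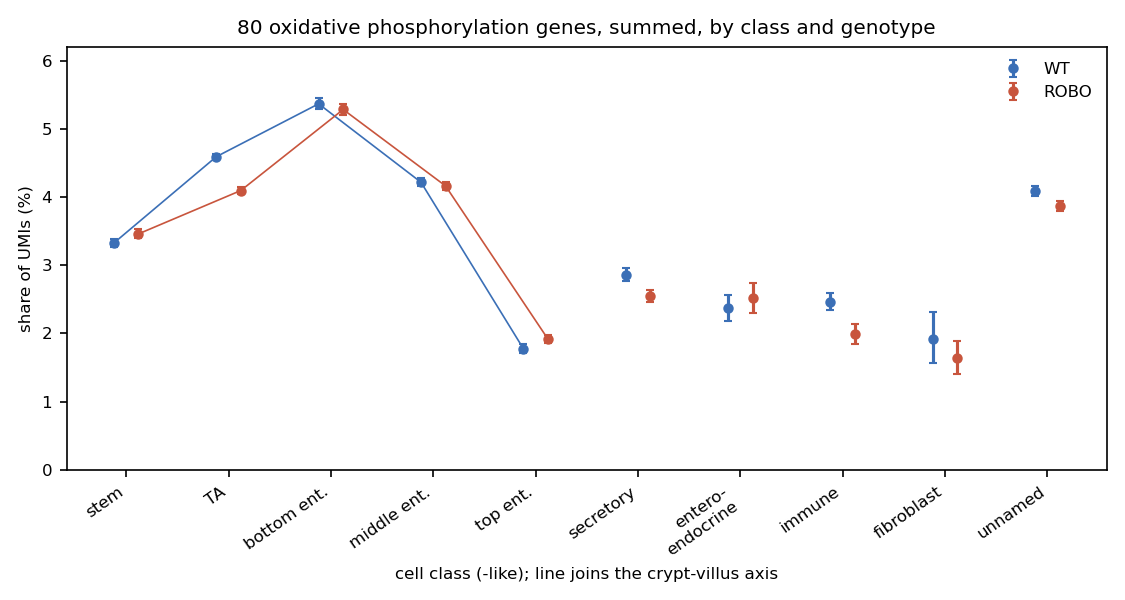
Share of UMIs (%, vertical axis) taken by the 80 members in each class (horizontal axis) for WT and ROBO; points are pooled sums and bars are exact 95% binomial intervals for counting error. The lines joining the 5 classes of the axis climb to 5.37% (WT) and 5.28% (ROBO) in bottom enterocyte-like cells and drop to 1.78% and 1.92% in top enterocyte-like cells.

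Single cells followed the same order. The median share per cell over both matrices was 3.33% in stem-like, 4.11% in TA-like, 5.03% in bottom, 3.91% in middle and 1.73% in top enterocyte-like cells. Among the top cells 90% lay below 3.05%, while 90% of bottom cells lay above 2.84%. In 7 of 8 alternative clusterings the bottom class was the highest and in 8 of 8 the top class was the lowest of the axis in both matrices; in the exception, at resolution 0.4, no bottom or TA class was formed. When the cells of these classes and of the unnamed cluster were instead ordered by enterocyte against stem and TA markers and cut into 5 equal ranges, the pooled share was 3.76%, 3.99%, 4.54%, 4.18% and 4.13% from the stem end to the enterocyte end. There the maximum was again in the middle of the order, but the top enterocyte-like cells were spread over the last 3 ranges (5, 102 and 122 cells) and no fall to the top-class level was seen.

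In the named classes outside the absorptive lineage the shares lay below that of stem-like cells (3.33% in WT, 3.46% in ROBO). Except for the fibroblast-like cells of ROBO, they lay above that of top enterocyte-like cells (1.78% and 1.92%). Secretory-like cells, which hold Paneth and goblet cells, stood at 2.86% in WT and 2.55% in ROBO, enteroendocrine-like cells at 2.37% and 2.52%, immune-like cells at 2.46% and 1.99%, and the 8 fibroblast-like cells at 1.92% and 1.63%. The unnamed cluster stood at 4.08% and 3.87%.

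A share depends on what else a cell transcribes. In the top enterocyte-like cells the 20 most abundant genes of that class, led by the apolipoprotein genes Apoa4, Apoa1 and Apoc3, took 30.6% of UMIs, against 8.03% in bottom and 11.1% in stem-like cells. With the 50 most abundant genes of the whole data set taken out of the denominator, apart from the 3 members among them, the pooled shares were 4.12% in stem-like, 5.13% in TA-like, 6.15% in bottom, 4.98% in middle and 2.52% in top enterocyte-like cells, the same order. Cytosolic ribosomal protein genes fell without a turn along the axis, from 20.5% in stem-like cells to 15.5%, 11.0%, 8.07% and 3.51%. Per ribosomal protein UMI, members therefore stood at 0.166, 0.282, 0.482, 0.519 and 0.529, of which the last step was up in WT (0.514 to 0.543) and slightly down in ROBO (0.524 to 0.520).

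The 4 complexes moved together. In WT, complex I took 0.880% of UMIs in stem-like, 1.38% in bottom and 0.530% in top enterocyte-like cells. For complex III these values were 0.381%, 0.679% and 0.221%, for complex IV 1.01%, 1.49% and 0.457%, and for complex V 1.05%, 1.82% and 0.568%. ROBO gave 0.945%, 1.35% and 0.531% for complex I, 0.411%, 0.626% and 0.237% for complex III, 0.996%, 1.49% and 0.531% for complex IV, and 1.11%, 1.82% and 0.618% for complex V. Complex V made up 31.6% of member UMIs in WT stem-like cells and 33.8% in bottom enterocyte-like cells, so the balance between complexes shifted far less than the total.

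Single members were then compared between classes. A member was counted as higher or lower where the ratio of its shares of UMIs reached 1.5-fold in the same direction in both matrices, given at least 100 UMIs in the classes compared. From stem-like to bottom enterocyte-like cells, 66 members passed this minimum and 28 of them (42.4%) were higher, against 18.5% of all genes. None was lower, against 10.9% of all genes. The median log2 ratio was 0.66 over members and 0.10 over all genes, and 65 of 66 members lay above 0. By complex, 13 of 33 tested members of complex I, 4 of 8 of complex III, 4 of 12 of complex IV and 7 of 13 of complex V were higher.

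From bottom to top enterocyte-like cells 62 of 66 tested members (93.9%) were lower, against 42.6% of all genes, and none was higher, against 15.2% of all genes. The median log2 ratio was -1.67 over members and -0.56 over all genes. The 4 members that were not counted as lower were Ndufa6, Ndufa13, Ndufa3 and Uqcrq, all small accessory subunits. All members of complex IV and complex V that were tested were lower, 12 and 13 in number.

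**Figure D2:**
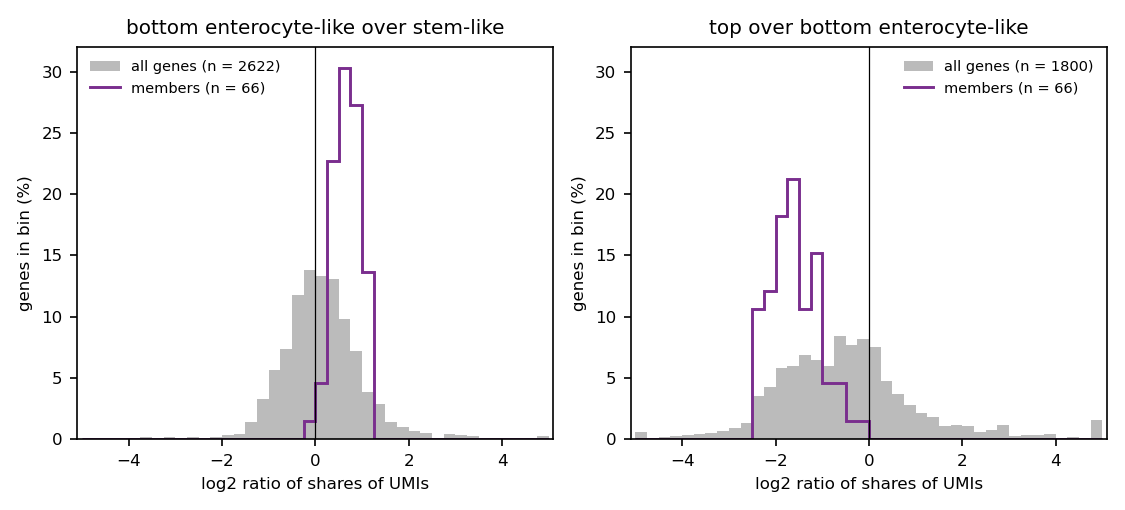
Percent of genes (vertical axis) by log2 ratio of shares of UMIs (horizontal axis, pooled matrices, 0.25-wide bins, values beyond 5 put in the end bins) for all tested genes (grey) and tested members (line). Members form a narrow peak around their medians, 0.66 in the left panel and -1.67 in the right panel.

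A listed set of main subunits, not all of them catalytic, showed this pattern at different depths. Atp5b, the catalytic beta subunit of ATP synthase, was at 17.0, 23.1, 29.3, 21.3 and 8.65 UMIs per 10000 from stem-like to top enterocyte-like cells in WT, and at 16.4, 22.2, 28.5, 21.1 and 9.47 in ROBO. Both matrices peaked in bottom and dipped in top cells, with a log2 ratio bottom over stem of 0.79 (0.68 to 0.90) and top over bottom of -1.67 (-1.85 to -1.49). Ndufv2, a subunit of the NADH-oxidizing module of complex I, was at 2.92, 5.1, 5.50, 4.08 and 0.953 in WT and at 3.42, 5.81, 8.06, 4.17 and 1.53 in ROBO. Its log2 ratio was 1.08 (0.83 to 1.33) bottom over stem and -2.38 (-2.88 to -1.91) top over bottom. Uqcrfs1, the Rieske iron-sulfur protein of complex III, was at 3.54, 6.56, 8.18, 7.81 and 2.13 in WT and at 4.49, 6.35, 9.12, 7.76 and 3.01 in ROBO. It kept nearly its bottom level through the middle class, and its log2 ratio bottom over stem was 1.11 (0.89 to 1.33).

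Cox4i1, the regulatory subunit of complex IV, was the flattest of the named subunits of this set below the tip: 21.9, 24.9, 26.8, 26.8 and 13.0 UMIs per 10000 in WT and 23.8, 23.9, 29.1, 28.0 and 13.5 in ROBO. Its log2 ratio bottom over stem was 0.29 (0.18 to 0.39), short of 1.5-fold in both matrices. Cox5a, another nuclear subunit of complex IV, was at 6.03 in WT stem-like and 12.2 in WT bottom cells, and at 6.78 and 14.7 in those of ROBO (log2 ratio 1.06, interval 0.89 to 1.24). The 2 complex IV subunits therefore differed in slope, with intervals that did not meet. Of the other subunits of this set, Ndufs1, Ndufs3 and Ndufv1 of complex I, Uqcrc1 and Uqcrc2 of complex III, and Atp5a1 and Atp5c1 of complex V were higher in bottom than in stem-like cells by the same rule, whereas Ndufs7, Ndufs8 and Cox5b were not.

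Few members departed from the common course. Ndufa6, an accessory subunit of complex I, was nearly level, at 5.17, 4.37, 5.65, 6.15 and 5.79 UMIs per 10000 in WT and 5.29, 3.79, 5.41, 6.38 and 4.54 in ROBO. Its log2 ratio was 0.08 (-0.14 to 0.31) bottom over stem and -0.13 (-0.41 to 0.15) top over bottom. Ndufa7 and Ndufb11, also accessory to complex I, had log2 ratios bottom over stem of -0.10 (-0.36 to 0.16) and 0.01 (-0.23 to 0.26). At the other end, Ndufa5 had the steepest tested slope from stem-like to bottom cells, 1.18 (0.74 to 1.62). The steepest tested drop to the top was that of Ndufa12, -2.47 (-3.46 to -1.61).

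**Figure D3:**
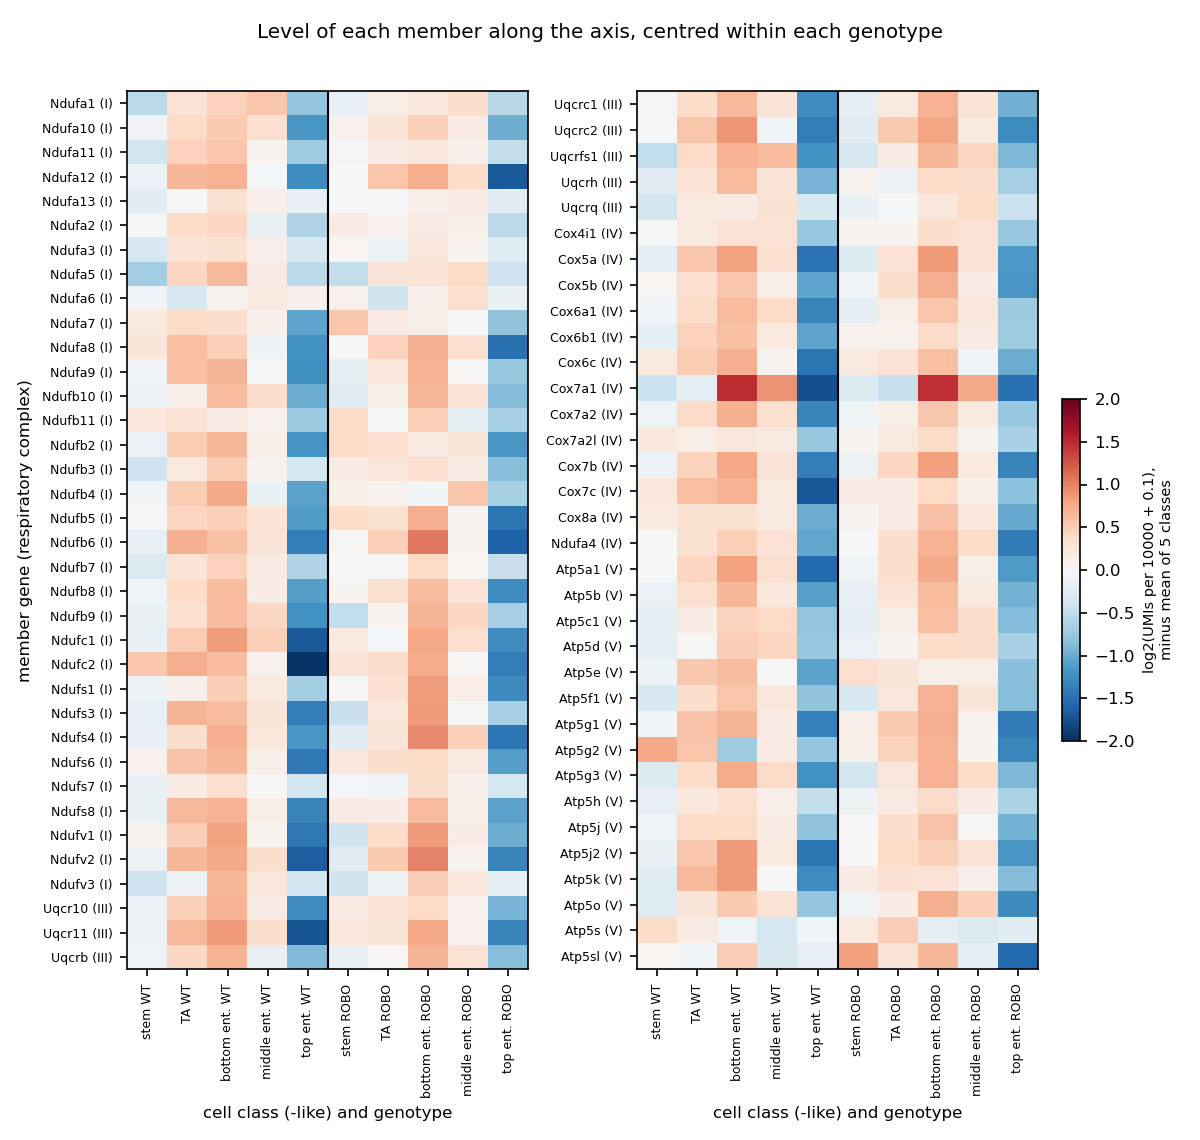
Level of 70 members with at least 100 UMIs (rows, with their complex) in the 5 classes of the axis (columns, WT left and ROBO right of the line), as log2(UMIs per 10000 + 0.1) minus the mean of the 5 classes of that genotype. Most rows are reddest in bottom and bluest in top enterocyte-like cells; Ndufa6 is pale throughout and Cox7a1 has the strongest contrast.

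Counting where each of the 71 members with at least 100 UMIs was highest, the bottom class came first for 59 in WT and 58 in ROBO, and for 51 it did so in both, against 8.98% of all genes with that many UMIs. The top class was the lowest for 63 in WT and 67 in ROBO, and for 63 in both, against 36.8% of all genes.

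The middle enterocyte-like class was not uniform. It held a cluster led by Cubn, which encodes a vitamin B12 receptor subunit, and a cluster led by Sis, the sucrase-isomaltase gene. Members took 5.60% of UMIs in the Sis-led cluster of WT (69 cells) and 5.40% in that of ROBO (61 cells), but 3.63% and 3.57% in the Cubn-led cluster (162 and 164 cells). The ratio was 1.54-fold in WT (1.5 to 1.59) and 1.51-fold in ROBO (1.47 to 1.55). The Sis-led share also stood above that of the bottom class, 5.37% in WT and 5.28% in ROBO. Its interval lay above that of the bottom class in WT (5.49 to 5.72 against 5.29 to 5.45) and met it in ROBO. The peak in the bottom class therefore holds for the pooled classes, not for every cluster. Of 66 tested members 25 (37.9%) were higher in the Sis-led cluster, against 10.6% of all genes, and none was lower, against 13.3%. Median log2 ratios were 0.67 over members and -0.01 over all genes. Ndufa1, an accessory subunit of complex I, was at the head with a log2 ratio of 1.44 (1.05 to 1.83), and Cox7a2l, which takes part in joining complexes III and IV, was at the foot with -0.45. Median depth was 1921.5 UMIs per cell in the Sis-led and 1631.5 in the Cubn-led cluster; the part of depth was not tested.

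Villus (middle and top) was also compared with crypt (stem-like and TA-like), which leaves out the bottom class. The summed ratio was 0.865 in WT (0.852 to 0.879) and 0.912 in ROBO (0.898 to 0.927). Of 71 tested members 1 was higher, against 16.6% of all genes, and 3 were lower, against 34.7%. The medians were -0.25 over members and -0.37 over all genes. Cox7a1 was the higher one, with a log2 ratio of 0.97 (0.50 to 1.45), and Ndufa6 (0.43), Ndufv3 (0.28), Atp5d (0.20) and Uqcrfs1 (0.18) followed. The lower ones were Atp5s (-0.82), Ndufc2 (-0.73) and Atp5g2 (-0.66), and Atp5sl (-0.69) and Ndufa12 (-0.61) also stood at the low end without passing in both matrices. Atp5s and Atp5sl (Dmac2 in GENCODE) are placed in complex V by symbol only. Both are among 11 members not counted as canonical subunits. The direction of the summed ratio turned without the top enterocyte-like cells, to 0.03 on the log2 scale, at resolution 0.4 (0.05), and between the last and first of the 5 ordered ranges (0.14).

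Isoform families were mostly represented by 1 gene. Cox4i1 had 12228 UMIs over all cells and Cox4i2 had 0, which allows up to 0.0112 UMIs per 10000 in WT and 0.0124 in ROBO (3 counts). Cox8b, Cox8c and Cox7b2 were also at 0, beside 5603 UMIs for Cox8a and 4573 for Cox7b. Ndufa4 had 2737 UMIs and Ndufa4l2 had 3, all in ROBO. Cox6b1 had 4986 and Cox6b2 65, of which 35 lay in TA-like cells. Cox6a1 had 7722 and Cox6a2, the isoform of heart and skeletal muscle, 12. All 12 lay in the immune-like class, 10 in WT and 2 in ROBO.

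Cox7a1, the muscle isoform of that subunit, was found next to the common isoform Cox7a2 in absorptive cells. It had 0.338, 0.415, 1.53, 0.994 and 0.0733 UMIs per 10000 from stem-like to top enterocyte-like cells in WT, from 11, 37, 49, 48 and 1 UMIs, and 0.258, 0.223, 1.10, 0.642 and 0.0547 in ROBO, from 8, 16, 30, 32 and 1. Both matrices were highest in bottom and lowest in top cells. Stem-like and bottom cells together held 98 UMIs, under the minimum of 100, and the log2 ratio between them was 2.16 (1.42 to 2.96). Cox7a2 went from 4.43 to 7.78 in WT and from 4.55 to 7.14 in ROBO over the same classes, a log2 ratio of 0.74. The intervals of Cox7a1 and of all members in the sum, 0.63 to 0.68, did not meet. Cox7a2l went from 2.40 to 2.44 in WT and from 2.29 to 2.87 in ROBO, with a log2 ratio of 0.17 (-0.17 to 0.50).

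The c subunit that forms the rotor ring of ATP synthase is encoded by Atp5g1, Atp5g2 and Atp5g3. Atp5g3 was at 14.1, 22.0, 28.4, 22.1 and 7.26 UMIs per 10000 in WT and at 15.3, 23.4, 32.3, 25.7 and 10.7 in ROBO. Atp5g1 was at 4.64, 7.16, 7.78, 5.38 and 1.83 in WT and at 5.23, 7.03, 8.09, 5.07 and 1.75 in ROBO. These 2 followed the common course, with log2 ratios bottom over stem of 1.04 (0.92 to 1.15) and 0.68 (0.47 to 0.90). Atp5g2 had 115 UMIs in WT and 152 in ROBO.

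Some of these counts are uncertain because near-identical copies exist. In 22 members some 75-base window of the last 400 transcript bases also occurs in another gene, in most cases a pseudogene. The shared part was 100% of windows for Atp5g2, 72.1% for Atp5l and Cox7c, 62.9% for Atp5h, 57.1% for Atp5g1, 54.3% for Ndufs3 and 42.9% for Ndufs5. How the authors' counting treated reads with several matches is not given in the sources used here. Ndufs5 was listed at 0 in every cell and Atp5l had 31 UMIs, so for these a count near 0 cannot be read as absence. The 9 members with under 100 UMIs were thus Cox4i2, Cox8b, Cox8c, Cox7b2, Ndufs5, Ndufa4l2, Cox6a2, Atp5l and Cox6b2.

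Promoter sequences were looked at because the members moved together. RefSeq start sites (GRCm38.p6) were found for 66 members, and windows from 250 bases before to 50 after the start were searched on both strands for the letters GCGCA followed by any base and GCGC (nuclear respiratory factor 1, NRF1), CCGGAAG (GABP), AAGGTCA (estrogen-related receptors) and ATGGCGG (YY1), factors known for binding at respiratory genes. No letters of 1 motif contain another. The stretches below lie before the start and outside the GENCODE gene, and capitals mark matches; further matches nearer the start of Cox6a1, Ndufb4 and Atp5g3 lie outside the stretches. Cox6a1 and Ndufb4 are shown for their NRF1 letters, Atp5g3 for the receptor letters (their reverse complement is printed), and Cox7a1, the member higher in villus cells, because its window held none of the 4.
Cox6a1, chr5:115348982-115349208, minus strand: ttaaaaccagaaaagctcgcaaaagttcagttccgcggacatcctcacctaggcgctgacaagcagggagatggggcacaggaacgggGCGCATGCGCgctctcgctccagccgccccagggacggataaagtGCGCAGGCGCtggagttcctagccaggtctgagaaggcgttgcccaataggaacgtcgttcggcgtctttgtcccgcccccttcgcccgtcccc
Ndufb4, chr16:37654454-37654618, minus strand: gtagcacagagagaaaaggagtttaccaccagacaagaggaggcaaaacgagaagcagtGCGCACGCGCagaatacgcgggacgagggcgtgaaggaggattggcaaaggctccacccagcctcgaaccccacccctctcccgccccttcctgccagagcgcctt
Atp5g3, chr2:73911327-73911576, minus strand: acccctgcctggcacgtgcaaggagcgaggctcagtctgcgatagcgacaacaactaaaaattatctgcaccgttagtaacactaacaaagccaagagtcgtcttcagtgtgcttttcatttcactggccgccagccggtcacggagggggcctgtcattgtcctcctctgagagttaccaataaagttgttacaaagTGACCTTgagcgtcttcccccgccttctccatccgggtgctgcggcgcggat
Cox7a1, chr7:30183921-30184143, plus strand: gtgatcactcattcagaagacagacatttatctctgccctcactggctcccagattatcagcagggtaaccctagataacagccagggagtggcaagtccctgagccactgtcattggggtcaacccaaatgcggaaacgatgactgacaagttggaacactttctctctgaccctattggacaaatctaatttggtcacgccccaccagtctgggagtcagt

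The NRF1 letters stood in 15 of 66 member promoters (22.7%), against 13.1% of 5927 genes with at least 100 UMIs and 5.19% of all 27025 genes in the table. For the receptor letters the shares were 10.6%, 4.08% and 5.38%, for YY1 16.7%, 11.2% and 4.69%, and for GABP 21.2%, 23.5% and 9.93%. At least 1 motif was found for 35 members and none for 31. Members with NRF1 letters had a median log2 ratio bottom over stem of 0.72 (12 tested) and those without 0.66 (44 tested). The other motifs went the other way. Medians with and without the letters were 0.62 and 0.68 for GABP, 0.57 (4 tested) and 0.66 for the receptors, and 0.65 and 0.66 for YY1. Members with none of the 4 motifs had 0.67 (26 tested). These matches are descriptions of letters, not of bound sites.

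Genes that work beside the members were read in the same comparisons. Of all genes, 18.5% were higher from stem-like to bottom cells and 42.6% were lower from bottom to top cells. The list of complex II and cytochrome c genes also held Cyc1 of complex III and Ndufab1 of complex I, which the symbol rule missed. This list went the same way as the members. In it 5 of 6 tested genes were higher in bottom than in stem-like cells (Sdha, Sdhb, Sdhd, Cyc1 and Cycs, with log2 ratios of 0.90, 1.2, 0.88, 1.02 and 1.49). From bottom to top cells 5 of 5 tested genes were lower. In the tricarboxylic acid cycle, which feeds electrons to the chain, 8 of 17 tested genes were higher from stem-like to bottom cells and 12 of 15 lower from bottom to top. In glycolysis 6 of 8 were higher in the first step, with Ldha (lactate dehydrogenase A) at 1.66, and 5 of 8 lower in the second; its summed share in WT peaked in the middle class, at 0.832% against 0.680% in bottom cells.

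The machinery that makes the complexes was read in 3 comparisons: bottom over stem-like cells (18.5% of all genes higher, 10.9% lower), top over bottom cells (42.6% lower) and villus over crypt (34.7% lower). Of the proteins of the mitochondrial ribosome, which translates mitochondrial messages, 2 of 51 tested genes were higher and 0 lower in the first, 19 of 22 were lower in the second and 49 of 72 lower in the third. Assembly factors of the respiratory complexes gave 0 of 13 higher and 1 lower in the first, 2 of 5 lower in the second and 10 of 30 lower in the third, a share near that of all genes. Mitochondrial carriers and import factors gave 6 of 23 higher, then 17 of 19 and 16 of 25 lower. Cytosolic ribosomal proteins gave 0 of 78 higher and 44 lower, then 75 of 77 and 75 of 78 lower.

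Among regulators, Esrra, which encodes the estrogen-related receptor alpha, was at 2.72, 2.72, 4.70, 4.27 and 3.57 UMIs per 10000 along the axis with the matrices pooled. It and the fatty acid sensor Ppara were higher in bottom than in stem-like cells, with log2 ratios of 0.79 and 1.4, and Myc was lower, at -2.59. Thus 2 of 6 tested regulators were higher and 1 was lower, against 18.5% and 10.9% of all genes. Tfam, which packages and transcribes mitochondrial DNA, peaked earlier, at 0.945, 1.73, 0.963, 0.458 and 0.313. The coactivator Ppargc1a had 82 UMIs in all cells and could not be tested, and stood at 0.063 in stem-like and 0.388 in bottom cells. Lower in villus than in crypt cells were Ppargc1b, Pprc1, Gabpa, Yy1, Tfam and Myc, 6 of 12 tested regulators, against 34.7% of all genes.

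Between the genotypes the summed member share differed little, with 4.11% for WT against 3.84% for ROBO and a log2 ratio of -0.10 (-0.11 to -0.08). Over all cells 71 members had at least 100 UMIs. None was 1.5-fold higher in ROBO, against 1.13% of all genes, and 2 were 1.5-fold lower, against 1.66%. The median log2 ratio was -0.07 over members and 0.00 over all genes. With each cell given the same weight, 5 members passed in place of 2. The share of all genes passing under that weighting was not computed.

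By class, the TA-like cells stood at 4.59% in WT and 4.09% in ROBO (log2 ratio -0.16, interval -0.19 to -0.14). Both TA-like clusters showed it, with 4.21% and 3.76% in the cluster led by the ribosomal RNA gene Rn45s and 4.73% and 4.23% in the cluster with 25 raised markers. In the 7 alternative clusterings with a TA-like class the log2 ratio was between -0.17 and -0.14. For bottom and middle enterocyte-like cells the ratios were -0.02 and -0.02, with intervals that held 0, and in every alternative clustering that formed the class they lay between -0.08 and -0.02 for bottom and between -0.04 and -0.00 for middle cells. The secretory-like (-0.17), immune-like (-0.31) and unnamed (-0.08) cells were lower in ROBO in the summed UMIs. Medians over single cells of WT and ROBO were 2.65% and 2.66% for secretory-like, 1.86% and 1.89% for immune-like, 4.07% and 3.86% for unnamed and 4.37% and 3.90% for TA-like cells, so the first 2 classes did not differ that way in their typical cell. Stem-like cells stood higher in ROBO by 0.06 (0.02 to 0.10), but lower in 8 of 8 alternative clusterings, so the sign in that class was not stable. Top enterocyte-like cells stood higher by 0.11 (0.03 to 0.19), and in 7 of 8 alternatives; the median cell stood at 1.73% in both matrices. In the ordering without clusters ROBO lay below WT in each of the 5 ranges, at 3.59% against 3.91%, 3.91% against 4.07%, 4.43% against 4.64%, 4.07% against 4.28% and 3.95% against 4.32%, with intervals that did not meet. Weighting the 5 classes of the axis equally brought the ratio to -0.01.

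The members lower in ROBO were mainly those with short coding sequences. Atp5e, the epsilon subunit of ATP synthase with a coding sequence of 156 bases, had 9.09 UMIs per 10000 in WT against 6.65 in ROBO (log2 ratio -0.45, interval -0.54 to -0.36). In WT it was at 6.98, 10.9, 11.5, 7.56 and 3.52 along the axis, and in ROBO at 7.43, 6.99, 6.40, 6.48 and 3.23. The stem-like and top cells of the matrices were close and the TA-like and bottom cells apart, so the bottom peak was not seen for this gene in ROBO. Atp5k, the e subunit of ATP synthase (213 bases), had 3.31 in WT and 2.10 in ROBO, the ratio being -0.66 (-0.82 to -0.50). Its TA-like level was 4.37 in WT and 2.35 in ROBO, while its stem-like level was 2.31 and 2.13.

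Ndufb4, an accessory subunit of complex I, was the lowest member with at least 100 UMIs, at 131 UMIs in WT and 61 in ROBO (-0.96, -1.42 to -0.51). Cox7a1 (-0.57), Ndufc1 (-0.51) and Atp5e completed the 5 lowest with Atp5k. At the other end stood Atp5g2 (0.55), Ndufs3 (0.34), Atp5s (0.27), Atp5c1 (0.23) and Ndufv2 (0.17). Atp5g2 and Ndufs3 are among the members with many shared windows. Atp5c1, the gamma subunit of the ATP synthase rotor, had 6.93 in WT and 8.12 in ROBO (0.14 to 0.32) and was higher in ROBO in each of the 5 classes of the axis, although in top cells the interval held 0.

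Of the 33 tested members with a coding sequence under 400 bases, 30 lay below 0 and for 23 the interval lay below 0; their median was -0.26. Of the 38 with 400 bases or more, 19 lay below and 19 above 0, with a median of 0.00. In the sums, the short members gave -0.22 (-0.24 to -0.20) and the long ones -0.00 (-0.02 to 0.01). Spearman's rho between coding length and the ROBO over WT ratio was 0.60 over the 71 members, 0.53 over the 51 without shared windows and 0.70 over 77 cytosolic ribosomal protein genes, but -0.01 over 7082 other genes. These genes share both matrices, so rho is a description only. Ribosomal protein genes under 300 bases were lower in ROBO in 9 of 9 cases (median -0.41), members under 300 bases in 18 of 19 (-0.32), and other genes of that length in 104 of 168 (-0.08).

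**Figure D4:**
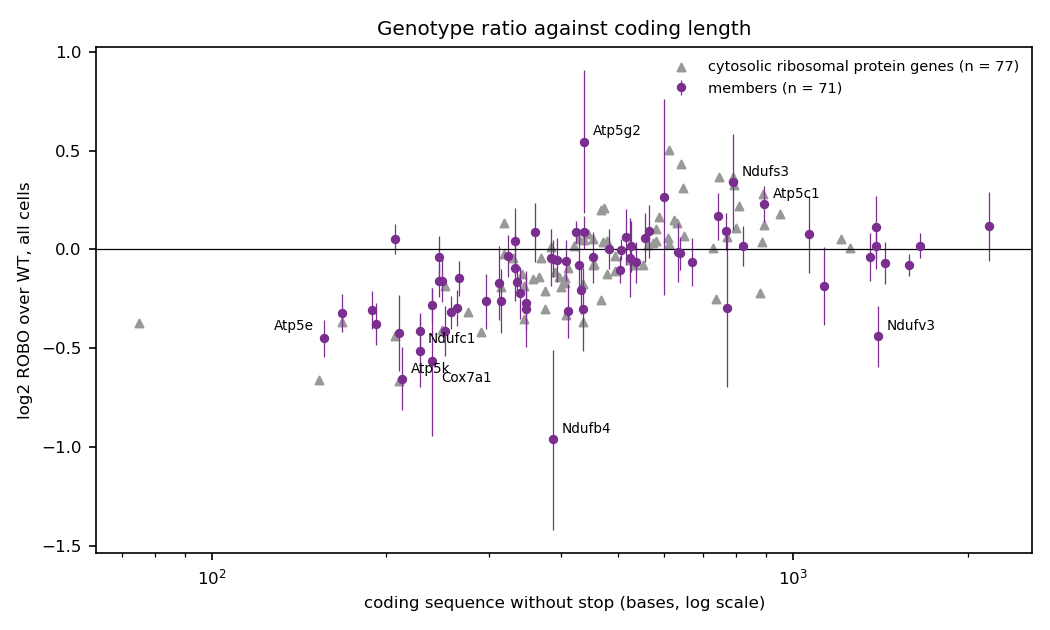
Log2 ratio ROBO over WT over all cells (vertical axis) against coding sequence length in bases (horizontal axis, log scale) for 71 members (circles, with 95% counting intervals) and 77 cytosolic ribosomal protein genes (triangles). Under 300 bases, 18 of 19 members and 9 of 9 ribosomal protein genes lie below 0; longer members scatter around 0, with Ndufb4 (-0.96), Ndufv3 (-0.44) and Atp5g2 (0.55) farthest out.

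The length pattern also differed between classes. For the short members the log2 ratio ROBO over WT was -0.33 (-0.37 to -0.30) for TA-like cells. For bottom and middle enterocyte-like cells it was -0.19 (-0.24 to -0.14) and -0.12 (-0.16 to -0.08), and for secretory-like cells -0.32 (-0.42 to -0.22). It was 0.01 (-0.05 to 0.07) in stem-like and 0.06 (-0.06 to 0.17) in top enterocyte-like cells. For the long members it was 0.09 in stem-like, -0.04 in TA-like, 0.10 in bottom, 0.05 in middle and 0.15 in top cells. With 1 pooled matrix per genotype, preparation, sequencing and genotype cannot be told apart in any of these ratios. Along the axis, length moved with the ratios less: rho over the tested members was 0.37 bottom over stem and -0.07 top over bottom.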

How the data were processed

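Cells were captured on a ddSEQ isolator and libraries made with the SureCell WTA 3' kit per the labels. The values deposited by the authors are UMI counts that were not normalized, in 1 matrix of genes by cells for each genotype. The labels name mm10 and GRCm38; aligner and annotation are not given in the sources used here. A 3' count is not scaled by gene length. Depth was 463 to 13756 UMIs per cell.

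The symbol rule for members uses no measured value, but it and the gene lists were set with earlier results of these data known. Counts were log-normalized to 10000 per cell, S and G2M scores regressed, and cells clustered in Seurat 5.3.0 (R 4.3.3; 2000 variable genes without members, 20 components, resolution 0.8). A cluster took the marker list with the highest summed log2 fold per listed gene, provided that 3 of its markers were raised 1.5-fold and detected in 10% of cells or more; it stayed unnamed where another list had more markers among its 10 leading genes. The naming rule, and the comparisons bottom over stem, top over bottom and Sis-led over Cubn-led, were set after clusters or values were seen. Scrublet (scanpy 1.11.5) called 2 WT and 4 ROBO doublets, which were kept. UMIs were summed per class and matrix. Shares have exact binomial (Clopper-Pearson) and ratios conditional exact 95% intervals. The calculation was tested on simulated data. Lengths came from GENCODE M21, which matched all 80 members. Named genes were the 5 highest and 5 lowest members per planned comparison, isoform families, a listed set of main subunits and related lists. Ndufa5, Ndufa7, Ndufb11, Ndufa3, Ndufa13, Uqcrq and Ndufa1 were named after their values were seen. Alternatives covered clustering, denominators, cell weighting, thresholds and member subsets. Values of 1 member and of 1 gene of a related list are not reported here by name; both stay in the sums and counts.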

Additional observations from a re-analysis of the deposited data

Results flagged for a closer look

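The ROBO over WT log2 ratio of the member share took opposite signs in different classes, with counting intervals on 1 side of 0. It was 0.0567 in stem-like and 0.11 in top enterocyte-like cells, and -0.16 in TA-like, -0.17 in secretory-like, -0.31 in immune-like and -0.078 in the cells of the unnamed cluster. The difference between classes was not tested, since each genotype is 1 pooled sample. These are ratios of summed UMIs. The median share per cell in WT and ROBO was 3.33% and 3.33% in stem-like, 1.73% and 1.73% in top enterocyte-like, 2.65% and 2.66% in secretory-like and 1.86% and 1.89% in immune-like cells, so the signs in these classes were not seen in the medians. The stem-like value changed sign in each of the 8 alternative clusterings, where it ranged from -0.07 to -0.00; the top value ranged from -0.14 to 0.15 and the TA-like value from -0.17 to -0.14.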

How the results depend on the processing

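No paired analysis was possible because the cells carry no sample or replicate number, and for the same reason no replicate could be left out. The villus over crypt log2 ratio of the member share was -0.18. It changed direction at resolution 0.4 (0.0545), between the last and first of 5 ordered ranges (0.14) and, without top enterocyte-like cells (0.0337), an alternative chosen after seeing the data. It was -0.12 with members kept among the variable genes, -0.16 without regression of phase scores, -0.15 at resolution 1.2, -0.14 and -0.0496 with 10 and 30 principal components, -0.14 in cells with at least 500 genes and -0.15 without called doublets. It was -0.13 without the 50 most abundant genes (members among them kept), -0.34 without ribosomal protein genes and -0.22 with equal weight per cell. The count of members past 1.5-fold in that comparison was 4. It was 2 with members kept, at resolution 0.4, in cells with at least 500 genes and without Rn45s-led clusters, 1 at resolution 1.2, with 10 components, at a minimum of 200 UMIs, at 2-fold and without top cells, 0 with 30 components, 9 without ribosomal protein genes and 20 at the lower fold threshold tried. For ROBO over WT the share ratio was -0.10, and -0.00782 with equal weight per epithelial class, -0.22 for members with coding sequences under 400 bases and -0.00383 for the longer ones, both subsets chosen after seeing the data. The count of members, 2, became 5 with equal weight per cell, 1 at a minimum of 200 UMIs, 13 at the lower fold threshold and 0 at 2-fold. The causes of these changes were not tested. The share of all genes past the threshold was not computed under these alternatives, so their member counts have no background. For the 9 members under 100 UMIs no ratio was read.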

Other observations

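The 12 UMIs of Cox6a2 came from 5 cells, all in the immune-like class. The same 5 cells held all 19 UMIs of Siglech, a surface lectin known from plasmacytoid dendritic cells, and 17 of the 25 UMIs of Ccr9, a chemokine receptor for gut homing. Siglech was detected in 4 and Ccr9 in 3 of these 5 cells. The 5 cells held 0 UMIs of Epcam, which had 9879 over all cells. They also held 0 of the T cell gene Cd3e, which had only 49 over all cells. These genes were looked up after the Cox6a2 values were seen.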
